A study of Mus musculus with 15 samples.

Results

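The comparison described here is that of Notch1 heterozygous with Notch1 wild type aortic valves in mice with long telomeres. It takes in 8 of the 15 samples of the series, 4 Notch1 wild type and 4 Notch1 heterozygous C57BL/6 mice aged 2 months, and all 18073 genes of the authors' expression table. Both groups carried intact Terc, which encodes the telomerase RNA, and so kept long telomeres. From each mouse 3 aortic valve leaflets were dissected and dissociated with collagenase, and RNA was amplified and sequenced. The other groups of the study, named only where their values are set beside these, had the same Notch1 genotypes in Terc-null mice of generation 2 with short telomeres (3 wild type and 4 heterozygous mice). How the Notch1 allele was altered, the sex of the mice and the time of day of dissection are not in the labels.

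Each gene has 1 deposited value per group, in FPKM (fragments divided by transcript length and by the number sequenced), so the 4 mice of a group share a single pooled number. Depth per library and the spread between mice are unknown, no difference given here has a replicate check, and no p-value can be computed. A difference is given as log2(FPKM + 1) in heterozygous minus log2(FPKM + 1) in wild type valves, a scale that makes differences of genes with low values look smaller. Pairs of FPKM values joined by "and" are in the order wild type, heterozygous unless a group is named. Where a gene is higher or lower at a value "against" another and no group is named, the heterozygous value comes first. A value is called higher or lower when it lies above or below the other group's pooled value, and genes past 1 log2 unit (2-fold at high levels) or 2 log2 units are counted as a description.

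Notch1 is a cell surface receptor that is cleaved after it binds a Delta-like or Jagged ligand on a neighbouring cell. The freed intracellular part joins the DNA-binding protein RBPJ and Mastermind coactivators and switches on repressors of the Hes and Hey families. In the developing aortic valve the receptor acts in the endocardial cells that give rise to the valve's interstitial cells, and loss of 1 human copy is known to cause malformed and calcified aortic valves. The same receptor is required in the thymus for the commitment of blood progenitors to the T cell lineage.

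Notch1 itself (ENSMUSG00000026923) was at 25.1 FPKM in heterozygous valves, compared with 39.1 FPKM in wild type valves, a difference of -0.62, or 0.642 times the wild type value. The short-telomere pair ran the other way, with 16.6 FPKM in wild type valves and 23.3 FPKM in heterozygous ones. Terc (ENSMUSG00000064796) was present in both long-telomere groups, at 1.42 FPKM in wild type valves and 4.52 FPKM in the heterozygotes, and both short-telomere groups had it listed at 0. The tissue label was checked against defining markers. Interstitial cell genes were among the most abundant, with the intermediate filament gene Vim at 1339 and 1229 FPKM and the collagen-binding proteoglycan gene Dcn at 2692 and 2255 FPKM in wild type and heterozygous valves. Endothelial Pecam1 stood at 96.1 and 106 FPKM. Both samples also held heart muscle RNA, with troponin T (Tnnt2) at 1172 and 1173 FPKM, and red cell, platelet and T cell RNA, described with the lists they touch. In such bulk samples fewer cells of a type and less RNA per cell cannot be told apart.

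Over all 18073 genes the median difference was 0.09, with quartiles of -0.35 and 0.53. In heterozygous valves 1964 genes (10.9%) were higher by at least 1 log2 unit and 1360 genes (7.53%) were lower by at least as much. At 2 log2 units the counts were 486 higher (2.69%) and 230 lower (1.27%). These shares are the background against which each gene list is read. Beside counts by sign alone stand the protein-coding genes, of which 8202 of 14813 were higher by any amount. Genes with a mean of 1 to 5 FPKM passed 1 log2 unit more often, 16.2% higher and 11.4% lower, than genes at 100 FPKM or more, of which 4.56% were higher and 7.98% lower.

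The largest differences fell in a few groups of genes. Receptors and granule genes of platelets, contractile genes of smooth muscle and a set of atrial muscle genes were much lower in heterozygous valves, and genes of developing T cells and of dividing cells were much higher. Matrix genes, valve transcription factors and Notch pathway genes were lower by smaller amounts, and genes for ribosomal proteins and the respiratory chain were higher by small amounts in nearly every member.

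**Figure D1:**
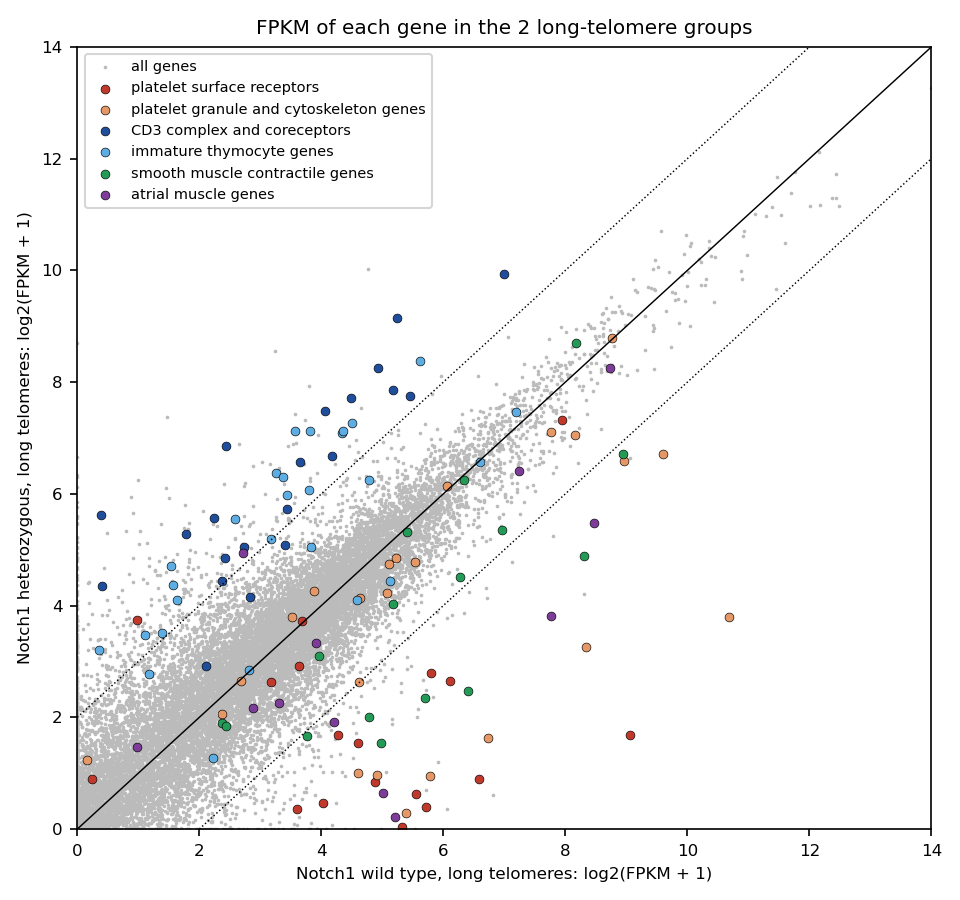
Each point is 1 gene, with log2(FPKM + 1) in Notch1 wild type valves on the x axis and in Notch1 heterozygous valves on the y axis, both with long telomeres. The solid line marks equal values and the dotted lines a difference of 2 log2 units. Coloured points are members of 6 gene lists. Most T cell genes (blue) lie above the diagonal, and most platelet (red, orange) and smooth muscle (green) genes and the strongest atrial genes (purple) lie below it.

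Within the Notch pathway the receptors and ligands were mostly lower. Of 8 measured receptor and ligand genes 2 were higher, and the median difference was -0.54. Notch4, a receptor of endothelial cells, was at 4.75 FPKM in wild type against 2.16 FPKM in heterozygous valves. The ligand gene Jag1 stood at 8.81 FPKM in heterozygous valves, compared with 12.4 FPKM in wild type valves, while the endothelial ligand Dll4 (2.34 and 1.96 FPKM) and the receptor Notch3 (6.03 and 6.2 FPKM) were close to equal. Among 14 target and core factor genes the median was -0.43. Hey1 and Hes1, direct target repressors, were lower by similar amounts, Hey1 at 23 FPKM in wild type valves and 13.3 FPKM in the heterozygotes and Hes1 at 34 FPKM in wild type against 20.8 FPKM in heterozygous valves. Hey2, the third of these repressors, differed less, at 18.1 and 15.7 FPKM. The coactivator Maml2, which has a row for each of 2 identifiers, was lower (in the annotated row, 37.5 and 21.7 FPKM), while Rbpj, which encodes the DNA-binding partner, was slightly higher (24.5 and 28 FPKM).

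Genes that process or modify Notch were divided. The 24 measured members had a median of -0.02, and 1 of them passed 1 log2 unit. That gene was Numbl, which encodes an adaptor related to the Notch antagonist Numb, at 3.8 FPKM in heterozygous valves, compared with 12.7 FPKM in wild type valves. Numb itself was at 37.5 FPKM in wild type valves and 24.8 FPKM in the heterozygotes. Of the gamma-secretase that cleaves the receptor, Ncstn was 23.7 and 24.3 FPKM and Psenen 154 and 149 FPKM. Mfng, a sugar transferase that alters ligand choice, was higher at 8.14 against 3.99 FPKM, and the related Lfng was lower at 4.94 against 6.84 FPKM. In the short-telomere pair the medians were 0.38 for receptors and ligands and 0.17 for targets and core factors, so neither list was lower there.

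Platelet surface receptor genes had the lowest median of all 65 lists relative to wild type. Platelets are fragments of bone marrow megakaryocytes that bind damaged vessel walls through glycoprotein receptors. Of 18 surface receptor genes 12 were lower by at least 1 log2 unit, against 7.53% of all genes, and 1 was higher by as much. The median was -3.15, and 3 of the 18 were higher by any amount. Gp6, the collagen receptor, stood at 45.7 FPKM in wild type against 0.54 FPKM in heterozygous valves. Itga2b, the platelet integrin chain, was at 0.803 FPKM in heterozygous valves, compared with 28.4 FPKM in wild type valves. Receptors for soluble agonists were not uniform. P2ry12, an ADP receptor and drug target, stood at 68.1 FPKM in wild type valves and 5.28 FPKM in the heterozygotes. P2rx1 differed less, at 8.04 and 5.18 FPKM, and F2rl3 was low in both groups and higher in heterozygous valves, at 0.178 and 0.872 FPKM. Itga2, the integrin chain that binds collagen on platelets and other cells, was at 12.2 FPKM in wild type against 1.14 FPKM in heterozygous valves. The gene higher by at least 1 log2 unit was the thromboxane receptor gene Tbxa2r, which smooth muscle and other cells share. It was at 12.5 FPKM in heterozygous valves, compared with 0.978 FPKM in wild type valves.

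The promoters of 2 platelet receptor genes are shown because both hold the core letters bound by GATA factors, which drive megakaryocyte genes. The sequences are the 200 bases before the RefSeq start site in build GRCm38.p6, written 5′ to 3′ on the gene's own strand, with AGATAA or its reverse complement in capitals. Gp6 lies at chr7:4397745-4397944 and Gp5 at chr16:30310782-30310981, both on the minus strand.
Gp6: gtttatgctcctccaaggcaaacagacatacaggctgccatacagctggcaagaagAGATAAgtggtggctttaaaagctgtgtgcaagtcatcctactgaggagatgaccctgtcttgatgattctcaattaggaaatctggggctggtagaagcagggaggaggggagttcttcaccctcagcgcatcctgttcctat
Gp5: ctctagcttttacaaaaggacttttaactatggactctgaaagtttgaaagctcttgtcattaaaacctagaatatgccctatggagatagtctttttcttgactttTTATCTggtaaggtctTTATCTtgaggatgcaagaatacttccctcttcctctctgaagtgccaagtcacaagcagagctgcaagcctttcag
Counted from the start site, the match begins at -144 in Gp6, and the 2 matches in Gp5 begin at -93 and -77. Searched on both strands from 250 bases before to 50 bases after each start site, AGATAA stood in 6 of 17 promoters of the receptor list (35.3%), in 1 of 20 of the granule list (5%) and in 11.2% of all 32851 RefSeq promoters. A match is a description of the letters and not a binding site.

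Granule and cytoskeleton genes of platelets were lower in part. Of 24 genes 11 were lower by at least 1 log2 unit and 1 was higher by as much, with a median of -0.80. Tubb1, the tubulin of the platelet's marginal band, stood at 41 FPKM in wild type valves and 0.215 FPKM in the heterozygotes. Alox12, the platelet lipoxygenase, was at 105 FPKM in wild type against 2.08 FPKM in heterozygous valves, and F5, which encodes coagulation factor V, at 0.928 FPKM in heterozygous valves, compared with 53.7 FPKM in wild type valves. Pf4, a granule chemokine, was lower but still abundant, at 773 FPKM in wild type valves and 104 FPKM in the heterozygotes. Nrgn, a calmodulin-binding protein gene, stood at 324 FPKM in wild type against 8.6 FPKM in heterozygous valves. Sparc, a matrix protein gene that fibroblasts also express, was at 437 and 442 FPKM. Of 12 transcription factor genes of the megakaryocyte lineage 5 were lower by at least 1 log2 unit and none higher by as much, with a median of -0.84, which was -0.17 over members at a mean of 10 FPKM or more. Nfe2, which drives platelet release, stood at 0.792 FPKM in heterozygous valves, compared with 8.36 FPKM in wild type valves, and Gfi1b was 4.82 FPKM in wild type and listed at 0 in heterozygous valves. Runx1 and Fli1, which T cells and endothelium also use, were higher, at 33.9 against 24.3 FPKM and 37.9 against 22.4 FPKM. The summed FPKM of the receptor list was 1259 in wild type and 217 in heterozygous valves.

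The same genotype contrast gave lower platelet genes with short telomeres as well. There the receptor list had a median of -2.88 and the granule list of -0.81. Itga2b was at 14.7 FPKM in wild type valves and 1.49 FPKM in heterozygous ones, and Gp6 at 23 and 1.24 FPKM. Both wild type groups were thus high and both heterozygous groups low for these receptors.

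Red cell genes were lower with the platelet genes. The list of 17 globin and erythroid genes had a median of -0.80, with 8 lower by at least 1 log2 unit, and took up 4.01% of all summed FPKM in wild type and 1.81% in heterozygous valves. Beta globin (Hbb-b1) stood at 5739.9 FPKM in wild type valves and 2269 FPKM in the heterozygotes and Alas2, the first enzyme of haem synthesis in red cells, at 382 FPKM in wild type against 141 FPKM in heterozygous valves. The 2 alpha globin genes Hba-a1 and Hba-a2 are near-identical copies whose reads cannot be told apart with certainty, and each was at less than the wild type level, for example Hba-a1 at 2529 FPKM in heterozygous valves, compared with 5569 FPKM in wild type valves. Whether the amount of blood left on the leaflets has a part in the platelet difference was not tested. The 18 neutrophil genes were low in both groups and summed to 19.1 FPKM in wild type valves and 50.7 FPKM in heterozygous ones. Of these genes 14 were higher and 2 lower by any amount, with a median of 0.58. S100a8 was at 4.99 and 17.6 FPKM, and the granule gene Ngp was near 0 in both groups, at 0 and 0.048 FPKM.

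T cell genes had the highest medians of all 65 lists relative to wild type, those of the CD3 complex first. Thymocytes are T cell precursors that cut and rejoin their receptor genes with the Rag enzymes and pass through a stage that carries both Cd4 and Cd8. Of 21 genes of the CD3 complex, receptor constant regions and coreceptors, 20 were higher by at least 1 log2 unit, against 10.9% of all genes, and the median was 2.91. Of 21 receptor signalling genes 17 were higher by as much (median 2.07), and of 27 immature thymocyte genes 21 (median 2.46). Lck, the kinase that starts receptor signalling, stood at 8.86 FPKM in wild type valves and 87.8 FPKM in the heterozygotes, and its partner Zap70 at 0.261 FPKM in wild type against 9.44 FPKM in heterozygous valves. Cd28, a costimulatory receptor, was at 46.4 FPKM in heterozygous valves, compared with 3.74 FPKM in wild type valves.

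Factors of the T lineage programme were higher with them. Bcl11b, which fixes T lineage commitment, stood at 5.01 FPKM in wild type valves and 46.1 FPKM in the heterozygotes. Ikzf1, a factor of all lymphoid cells, was at 9.37 FPKM in wild type against 78 FPKM in heterozygous valves. Satb1, a chromatin organiser of thymocytes, stood at 138 FPKM in heterozygous valves, compared with 19.5 FPKM in wild type valves, and Tcf7, a T cell factor that also carries Wnt signals, at 48 FPKM in wild type valves and 333 FPKM in the heterozygotes. Ccr9, the receptor that draws progenitors into the thymus, was at 21.7 FPKM in wild type against 154 FPKM in heterozygous valves. Ptcra, the surrogate alpha chain of early thymocytes, was 0.286 FPKM in wild type valves and 8.18 FPKM in heterozygous ones. Dtx1, a Notch target gene, was lower at 1.42 against 3.65 FPKM.

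Genes of mature and cytotoxic lymphocytes were less uniform. Their list of 19 had a median of 0.63 with 7 higher and 1 lower by at least 1 log2 unit. Ccr7, the lymph node homing receptor, stood at 20.2 FPKM in heterozygous valves, compared with 0.133 FPKM in wild type valves. Foxp3, the factor of regulatory T cells, was 1.72 and 1.68 FPKM, and Cxcr6, a receptor of tissue-resident lymphocytes, was lower at 4.33 against 15.2 FPKM. B cell genes had a median of -0.36 over 21 genes, of which 9 were higher and 12 lower by any amount.

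Segments of the T cell receptor loci were measured as well. Each receptor chain joins 1 of many short joining segments to a variable and a constant segment, and different T cells use different ones. The table lists these segments under clone names, and 62 joining, 39 variable and 6 constant segments were identified by their Ensembl gene identifiers. Of the joining segments 60 were higher in heterozygous valves by at least 1 log2 unit, with a median difference of 3.90, and of the variable segments 37 were, with a median of 2.44. All 6 constant segments, which are also members of the CD3 list above, were higher (median 3.13). Joining segments summed to 697 FPKM in wild type valves and 4884 FPKM in heterozygous ones, and 21 of them were listed at 0 in wild type while none was listed at 0 in heterozygous valves.

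Along the alpha locus 46 of 48 joining segments were higher by at least 1 log2 unit, with a sum of 454 FPKM in wild type valves and 3245 FPKM in heterozygous ones. The 2 exceptions were Traj32, at 176 FPKM in wild type valves and 70.8 FPKM in heterozygous ones, and Traj6, at 25.1 and 26.5 FPKM. All 12 beta joining segments were higher, with a median of 4.05. Of 18 variable segments of immunoglobulin genes, which B cells rearrange, 5 were higher and 3 lower by at least 1 log2 unit. Their median was 0.22. Of 6 immunoglobulin joining segments 4 were higher and 1 lower by as much (median 1.52). Of 5 constant segments 3 were higher and none lower by as much (median 1.06). Ighm was at 86.2 and 181 FPKM, Igkc at 55.5 and 117 FPKM and Iglc2 at 12.5 and 6.4 FPKM. FPKM divides by transcript length, and joining segments have a median length of 60 bases, so their levels are less certain than those of whole genes and similar segments can share reads. In the short-telomere pair the joining segments was at 847 FPKM in wild type valves and 38.8 FPKM in heterozygous ones in sum.

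**Figure D2:**
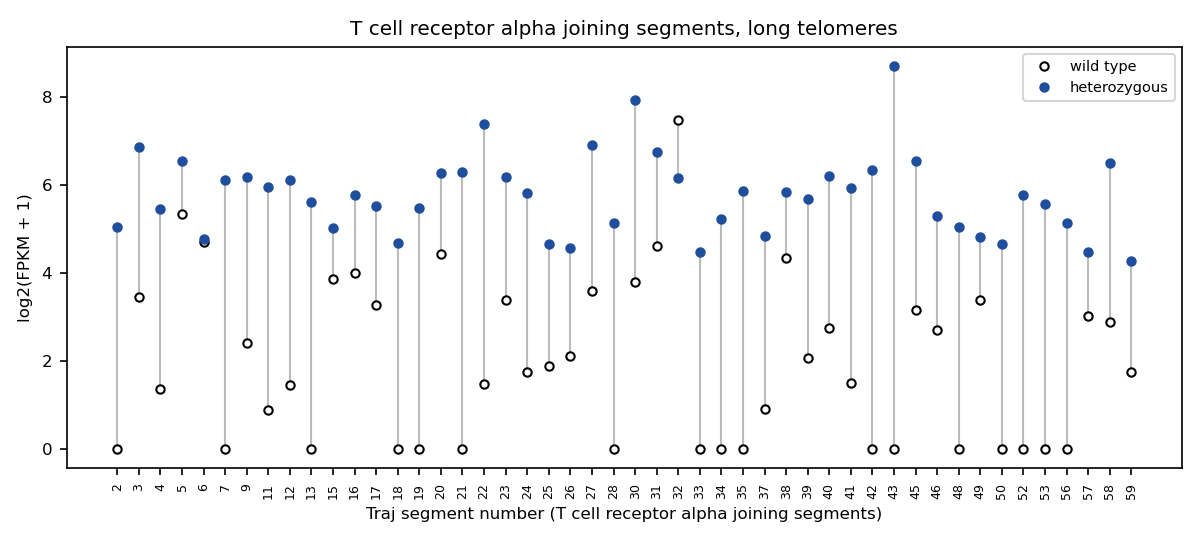
Log2(FPKM + 1) of 48 alpha joining segments of the T cell receptor, ordered by segment number on the x axis, in Notch1 wild type (open) and Notch1 heterozygous (filled) valves with long telomeres. Grey lines join the pooled values of a segment; heterozygous values lie above wild type in all but Traj32, with Traj6 nearly equal.

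The thymus lies next to the great vessels, and its own supporting cells have defining genes that were measured. Foxn1, the master factor of thymic epithelium, stood at 0.121 FPKM in wild type valves and 0.662 FPKM in heterozygous ones. Psmb11, the proteasome subunit of cortical epithelium, was at 0.84 and 5.02 FPKM, and Aire, of medullary epithelium, at 0.0445 and 0.363 FPKM. Ccl25, a chemokine of thymic epithelium that binds Ccr9, was 0.85 and 7.16 FPKM. Over 9 such genes 4 were higher by at least 1 log2 unit and the sum was 9.17 FPKM in wild type valves and 32.5 FPKM in heterozygous ones. The part of thymic tissue in the T cell values was not tested.

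Genes of dividing cells were higher in heterozygous valves together with the thymocyte genes. All 30 mitosis genes were higher, 26 of them by at least 1 log2 unit, with a median of 1.74. Top2a, the topoisomerase that untangles chromosomes before division, stood at 4.98 FPKM in wild type valves and 35.6 FPKM in the heterozygotes. Kif11, a motor of the mitotic spindle, was at 5.47 FPKM in wild type against 33.3 FPKM in heterozygous valves. Ndc80, which ties chromosomes to the spindle, was 1.3 and 16.3 FPKM, and the proliferation marker Mki67 was 19.5 and 73.5 FPKM. Cdk1, the kinase that drives entry into mitosis, stood at 1.75 and 7.79 FPKM.

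The promoters of Top2a, Kif11 and Cdk1 are shown because all hold the cell cycle homology region, TTTGAA, a motif through which mitosis genes are repressed outside the late cell cycle. The capitals mark TTTGAA or its reverse complement in the 200 bases before the start site (RefSeq, GRCm38.p6, 5′ to 3′ on the gene's strand). Top2a lies at chr11:99024190-99024389 on the minus strand, Kif11 at chr19:37376182-37376381 on the plus strand and Cdk1 at chr10:69352913-69353112 on the minus strand.
Top2a: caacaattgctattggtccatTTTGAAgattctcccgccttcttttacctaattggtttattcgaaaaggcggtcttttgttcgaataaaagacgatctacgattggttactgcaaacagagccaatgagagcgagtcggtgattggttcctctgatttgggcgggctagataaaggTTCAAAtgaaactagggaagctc
Kif11: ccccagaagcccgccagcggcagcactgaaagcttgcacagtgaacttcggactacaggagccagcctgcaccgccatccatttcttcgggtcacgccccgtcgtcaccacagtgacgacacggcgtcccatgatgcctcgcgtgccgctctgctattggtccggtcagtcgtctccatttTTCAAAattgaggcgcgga
Cdk1: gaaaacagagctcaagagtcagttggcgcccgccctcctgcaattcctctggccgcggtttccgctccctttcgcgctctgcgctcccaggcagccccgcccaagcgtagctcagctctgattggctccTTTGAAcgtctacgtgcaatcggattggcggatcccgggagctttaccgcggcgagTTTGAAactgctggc
Matches begin at -179 and -23 in Top2a, at -19 in Kif11 and at -71 and -15 in Cdk1. TTTGAA on either strand stood in 19 of 25 promoters of the mitosis list (76%) and in 17.9% of all RefSeq promoters. The list groups genes by role and the motif is a known feature of such genes, so the share describes the list and not the Notch1 difference.

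Replication genes followed with smaller differences. Of 34 genes 14 were higher by at least 1 log2 unit and none lower by as much, with a median of 0.94. Rrm2, a subunit of the enzyme that makes deoxynucleotides, was at 30.5 FPKM in heterozygous valves, compared with 5.78 FPKM in wild type valves, and Uhrf1, which copies DNA methylation after replication, at 3.46 FPKM in wild type valves and 19.2 FPKM in the heterozygotes. Pcna, the sliding clamp of DNA polymerase, stood at 22.2 FPKM in wild type against 64.9 FPKM in heterozygous valves. The polymerase subunit Pold1 was not higher, at 7.11 and 6.09 FPKM. Histone genes had a median of 1.23 over 33 genes, 19 of them higher by at least 1 log2 unit, with Hist1h1a, a linker histone gene, at 54.3 FPKM in heterozygous valves, compared with 6.37 FPKM in wild type valves. Histone genes resemble each other and their reads may be shared among copies.

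Repair and chromatin genes were higher in part. Of 26 repair genes 9 were higher by at least 1 log2 unit and none lower by as much, with a median of 0.74. Lig4, the ligase that joins broken ends in receptor rearrangement, was at 2.15 FPKM in wild type valves and 13.2 FPKM in the heterozygotes, and Xrcc6, which encodes the Ku70 end-binding protein, at 10.01 FPKM in wild type against 37.1 FPKM in heterozygous valves. The other Ku gene, Xrcc5, was 8.22 and 11.2 FPKM. Of 24 chromatin and DNA methylation genes 6 were higher by at least 1 log2 unit and none lower by as much, with a median of 0.52. Hmgb2, a DNA-bending protein gene, stood at 121 FPKM in heterozygous valves, compared with 31.1 FPKM in wild type valves, and Ezh2, the histone methyltransferase of the Polycomb complex, at 14.4 FPKM in wild type valves and 48.8 FPKM in the heterozygotes. Beside these lists stand the thymocyte genes, which summed to 544 FPKM in wild type valves and 1923 FPKM in heterozygous ones, with 21 of 27 members higher by at least 1 log2 unit. Their part in the cell division genes was not tested.

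Contractile genes of smooth muscle were lower. Of 16 genes 10 were lower by at least 1 log2 unit and none higher by as much, with a median of -1.68. Lmod1, an actin nucleator of smooth muscle, was at 30.6 FPKM in wild type against 1.9 FPKM in heterozygous valves. Mylk, the kinase that triggers contraction, stood at 3.01 FPKM in heterozygous valves, compared with 26.7 FPKM in wild type valves. Acta2, the alpha actin of smooth muscle and of activated interstitial cells, was at 494 FPKM in wild type valves and 104 FPKM in the heterozygotes. Tagln, an actin-binding marker, was 123 and 39.9 FPKM and Myocd, the coactivator of the programme, 14.5 and 7.58 FPKM. Members shared with heart muscle did not follow: Des, the muscle intermediate filament, was 79.5 and 75.4 FPKM and Pln, a regulator of the calcium pump, 288 and 413 FPKM. Mesothelial genes, which mark the surface lining of heart and vessels, were lower beside them, 11 of 17 by at least 1 log2 unit. The part of vessel wall in these values was not tested.

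The promoter of Myl9, which encodes the regulatory light chain of smooth muscle myosin, is shown because its gene was among the lowest of the list (314 FPKM in wild type valves and 28.5 FPKM in heterozygous ones) and it holds a CArG box, the element bound by serum response factor, here in capitals. It lies at chr2:156775264-156775463 on the plus strand.
Myl9: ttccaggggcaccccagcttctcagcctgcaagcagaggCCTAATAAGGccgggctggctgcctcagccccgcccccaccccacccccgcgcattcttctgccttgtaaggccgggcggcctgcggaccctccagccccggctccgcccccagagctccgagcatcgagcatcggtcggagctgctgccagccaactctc
The box begins at -161. A CArG box was found in 3 of 13 promoters of the smooth muscle list (23.1%) and in 1.63% of all RefSeq promoters. The other matches were in both promoters of Ldb3, whose level was near equal (41.5 and 38.7 FPKM). These 2 promoters overlap and hold the same box, which is thus counted in both.

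Atrial muscle genes were lower while genes of the sarcomere in general were not. The 12 atrial genes had a median of -0.93, or -2.30 over members at a mean of 10 FPKM or more, with 6 lower by at least 1 log2 unit. Sln, an inhibitor of the calcium pump in atrial muscle, stood at 31.4 FPKM in wild type against 0.563 FPKM in heterozygous valves, and Nppa, the atrial natriuretic peptide gene, at 43.4 FPKM in heterozygous valves, compared with 352 FPKM in wild type valves. Nppb, the related ventricular stress peptide gene, was higher at 29.7 against 5.55 FPKM. Of 23 cardiac sarcomere genes 19 were higher, with a median of 0.31. Actc1, cardiac actin, was at 758 FPKM in wild type valves and 1674 FPKM in the heterozygotes, and Atp2a2, the calcium pump, at 242 FPKM in wild type against 507 FPKM in heterozygous valves, while Tnnt2 was 1172 and 1173 FPKM. The atrial list had a median of 0.80 in the short-telomere pair, where Nppa was 46.8 FPKM in wild type valves and 413 FPKM in heterozygous ones. The part of adhering heart muscle in these values was not tested.

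Matrix genes of the valve were lower almost throughout. Valve leaflets are built by interstitial cells from collagen, proteoglycan and elastic layers. All 20 measured elastic fibre and microfibril genes were lower, 7 of them by at least 1 log2 unit, with a median of -0.89. Lox, the enzyme that cross-links collagen and elastin, stood at 2.03 FPKM in heterozygous valves, compared with 7.98 FPKM in wild type valves. Ltbp4 and Ltbp3, which tether latent TGF-beta to microfibrils, was at 224 and 93 FPKM in wild type valves and 106 and 41.5 FPKM in heterozygous ones. Emilin1, a glycoprotein at the elastin surface, was 32 and 15.8 FPKM. Fbn1, the main fibrillin, differed least of the 20, at 40.7 and 35.4 FPKM.

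Collagen chains had a median of -0.66 over 27 genes, 5 of them lower by at least 1 log2 unit and none higher by as much. Col1a1, the main chain of fibrillar collagen, stood at 199 FPKM in wild type valves and 105 FPKM in the heterozygotes, and Col6a3, of the beaded filaments around cells, at 41.6 FPKM in wild type against 19.4 FPKM in heterozygous valves. The basement membrane chain Col4a6 was 9.27 and 3 FPKM, whereas Col4a1 (41.3 and 36.6 FPKM) and Col4a2 (31.2 and 33.5 FPKM), the chains of all basement membranes, were close to equal. Only 2 of 27 were higher, of which Col8a1, a short-chain collagen of vessels, differed more, at 12.3 and 19.2 FPKM. With short telomeres the collagen list had a median of 0.31.

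Of 20 proteoglycan genes 17 were lower, 5 of them by at least 1 log2 unit. The median was -0.50, with Hspg2, which encodes perlecan, at 62.1 FPKM in heterozygous valves, compared with 128 FPKM in wild type valves. Prelp, which anchors basement membranes to connective tissue, was at 929 FPKM in wild type valves and 534 FPKM in the heterozygotes, and Vcan, the large proteoglycan of the valve's spongy layer, at 189 FPKM in wild type against 119.7 FPKM in heterozygous valves. The cross-linking protein gene Hapln1 was higher, at 38.3 against 25.7 FPKM. Enzymes that remodel matrix were divided: Adamts10, a protease of microfibrils, stood at 15.7 FPKM in heterozygous valves, compared with 48.6 FPKM in wild type valves, and Mmp19 at 21.7 FPKM in wild type valves and 6.33 FPKM in the heterozygotes, but the inhibitor Timp3 was 409 and 355 FPKM. Among cell surface receptors for matrix, Itga8, an integrin chain of mesenchymal cells, was at 32.3 FPKM in wild type against 11.3 FPKM in heterozygous valves, and Itgb1, the chain shared by most of them, at 133 and 127 FPKM. Summed over the 27 collagen chains the level was 778 FPKM in wild type valves and 469 FPKM in heterozygous ones. Smooth muscle and mesothelial genes, which mark tissue next to the leaflet, were lower beside the matrix genes, summing to 1679 and 333 FPKM in wild type valves and 765 and 240.4 FPKM in heterozygous ones, and their part in the matrix values was not tested. Of 19 interstitial and fibroblast marker genes 15 were lower, 3 of them by at least 1 log2 unit, with a median of -0.43. Of the others 1 was higher by as much, Thy1, which is also a member of the CD3 list above, at 43 and 216 FPKM. The part of T cell RNA in the Thy1 value was not tested. Pdgfrb, a growth factor receptor of mesenchymal cells, was 68.9 and 31.8 FPKM, and the matrix regulator Lum was 443 and 402 FPKM.

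Transcription factors of valve development were lower by modest amounts in nearly all members. Of 27 such genes 1 was higher, Prrx2, at 1.3 and 1.7 FPKM, and 3 were lower by at least 1 log2 unit. The median was -0.58. Snai1, which drives the change from endocardial to mesenchymal cells and is a Notch target, stood at 4.37 FPKM in heterozygous valves, compared with 11.6 FPKM in wild type valves. Sox9, a factor of valve progenitors and cartilage, was at 61.1 FPKM in wild type valves and 33.4 FPKM in the heterozygotes. Gata6 and Gata4, cardiac zinc finger factors, were at 44.7 and 62.9 FPKM in wild type valves and 23.9 and 41.1 FPKM in heterozygous ones. Nfatc1, the endocardial factor of valve formation, was near equal at 38.8 and 35.9 FPKM, as was Runx2, the bone master factor, at 3.45 and 3.12 FPKM.

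Signals that act on valve cells were lower in part. Tgfb3, a growth factor of valve remodelling, stood at 54 FPKM in wild type against 20.8 FPKM in heterozygous valves, and Bmp1, a protease that matures collagen, at 16.8 FPKM in heterozygous valves, compared with 36.8 FPKM in wild type valves. The signal transducers Smad1 (12.4 and 12.5 FPKM) and Smad3 (16.6 and 16.4 FPKM) and the target Id1 (39 and 39.1 FPKM) were equal or nearly so. Igfbp5, a binding protein of insulin-like growth factors, was at 229.8 FPKM in wild type valves and 88.6 FPKM in the heterozygotes, and the growth factor Igf2 at 71.8 FPKM in wild type against 34.7 FPKM in heterozygous valves. Of 13 genes of the neuregulin and epidermal growth factor family 4 were lower by at least 1 log2 unit and none higher by as much, with a median of -0.07. The receptor gene Egfr stood at 3.08 FPKM in heterozygous valves, compared with 9.51 FPKM in wild type valves and Erbb2 at 13 FPKM in wild type valves and 5.15 FPKM in the heterozygotes. Among ligand genes Ereg was 9.37 and 3.63 FPKM, Nrg1 9.4 and 16.3 FPKM and Areg 5.65 and 11.6 FPKM. Sost, which encodes the Wnt inhibitor sclerostin, was at 21.9 FPKM in wild type against 1.41 FPKM in heterozygous valves. The Wnt target Axin2 was lower at 13.7 against 23.7 FPKM, and Wnt9a, a ligand of valve endothelium, stood at 4.42 FPKM in heterozygous valves, compared with 15.4 FPKM in wild type valves.

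Endothelial genes as a list of 20 had a median of -0.31, with 1 past 1 log2 unit. That gene was Vwf, which platelets and endothelium both make, at 23.7 FPKM in wild type valves and 5.17 FPKM in the heterozygotes. Egfl7, a secreted protein of endothelium, was 35.6 and 19.98 FPKM, and the junction protein Cdh5 was 59.7 and 50.9 FPKM. Genes induced by smooth flow lay on both sides: Klf2 (39 and 36.9 FPKM), Klf4 (52.3 and 54.6 FPKM) and Aqp1 (133 and 133 FPKM) were equal or nearly so, while the connexin Gja5 was lower at 3.8 against 8.93 FPKM. Adhesion molecules for leukocytes were near equal, with Vcam1 at 132 and 129.7 FPKM and Icam1 at 15.6 and 15.6 FPKM.

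**Figure D3:**
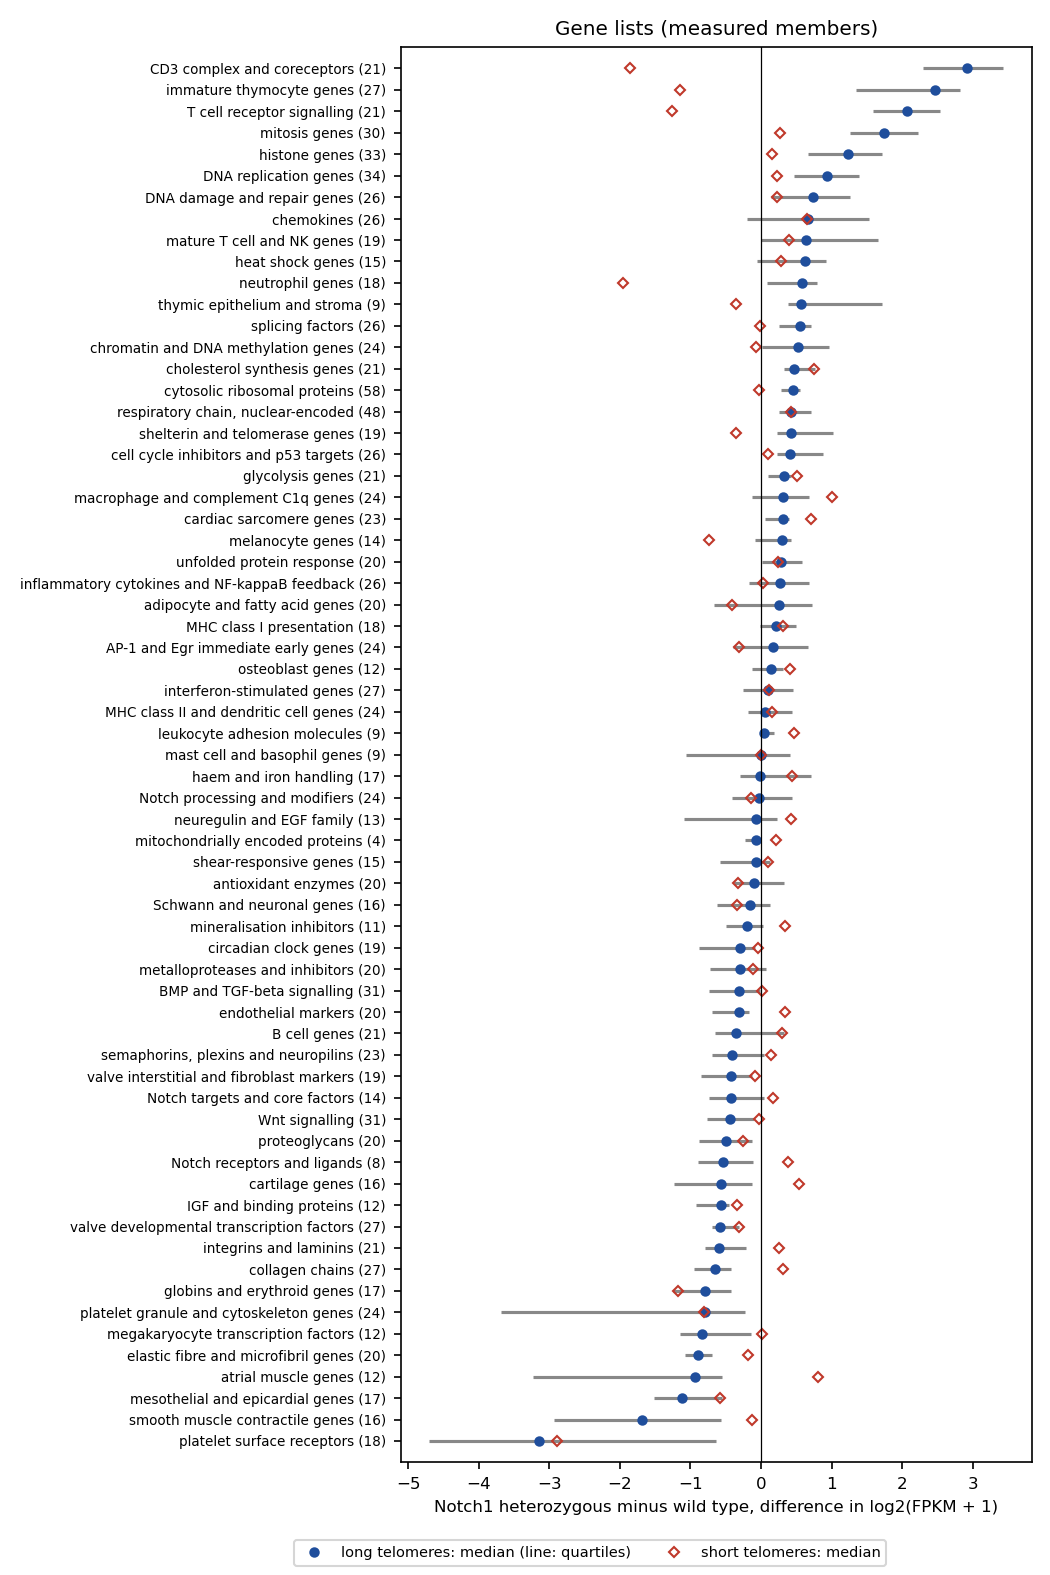
Each row is a gene list, with the number of measured members in brackets. Filled circles and grey lines give the median and quartiles of the difference in log2(FPKM + 1), Notch1 heterozygous minus wild type, with long telomeres, and open diamonds give the median with short telomeres. The CD3, thymocyte and T cell receptor signalling lists stand highest and the platelet surface receptor, smooth muscle and mesothelial lists lowest with long telomeres.

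Macrophage genes lay on both sides. Of 24 genes 3 were higher and 2 lower by at least 1 log2 unit, against 10.9% and 7.53% of all genes, with a median of 0.31. Csf1r, the receptor that maintains macrophages, was 47.8 and 44.9 FPKM, and the complement gene C1qa was 62.3 and 70.7 FPKM. Fcgr3 and Fcgr1, receptors for antibodies, were higher at 47.4 against 19 FPKM and 9.29 against 3.32 FPKM. Lyve1 was lower at 5.98 against 15.4 FPKM, as was Pf4, given above with the platelet genes. Chemokine genes were higher in 9 of 26 by at least 1 log2 unit, with a median of 0.66. Ccl22 and Ccl17, dendritic cell chemokines that draw T cells, were at 1.14 and 10.3 FPKM in wild type valves and 11.9 and 44.7 FPKM in heterozygous ones. Cxcl14 and Cx3cl1, which tissue cells secrete, were lower, at 0.774 against 4.01 FPKM and 17.7 against 32.3 FPKM. Presentation genes of MHC class II differed little, with Cd74 at 1190.5 and 1132 FPKM. Interferon-stimulated genes had a median of 0.10.

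Clock genes differed in both directions. The circadian clock is a loop in which Arntl and Clock activate the Per, Cry and Nr1d1 repressors, and the output factor Dbp, at another time of day than that at which Arntl itself peaks. Arntl was at 1.72 FPKM in wild type against 13.4 FPKM in heterozygous valves, and Cry1, which peaks late in the loop, at 14 FPKM in heterozygous valves, compared with 4.21 FPKM in wild type valves. In the opposite direction Dbp stood at 47.1 FPKM in wild type valves and 13.7 FPKM in the heterozygotes, Per3 at 22.3 FPKM in wild type against 9.09 FPKM in heterozygous valves, Per2 at 11 FPKM in heterozygous valves, compared with 23.8 FPKM in wild type valves and Nr1d1 at 197 FPKM in wild type valves and 93.7 FPKM in the heterozygotes. The output factors Tef (28.7 and 17.2 FPKM) and Hlf (37 and 22 FPKM) were lower with Dbp. Clock, whose RNA varies little over the day, was 15.9 and 16.8 FPKM and Per1 was 39.3 and 36.2 FPKM. Nfil3, a repressor that peaks apart from Dbp, was lower too, at 4.89 against 16.2 FPKM. Of 19 clock genes 5 were lower and 3 higher by at least 1 log2 unit. With short telomeres Arntl was 10.3 FPKM in wild type valves and 9.93 FPKM in heterozygous ones, and Dbp was 3.56 and 11.6 FPKM. Wild type valves with long telomeres were thus the lowest of the 4 groups for Arntl and the highest for Dbp. The labels give no time of dissection.

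Genes for basic cell functions were higher by small and even amounts. Of 58 cytosolic ribosomal protein genes 57 were higher and none passed 1 log2 unit, with a median of 0.45 against 0.09 for all genes, and their share of all summed FPKM was 4.56% in wild type and 6.14% in heterozygous valves. Of 48 nuclear genes of the respiratory chain 44 were higher, with a median of 0.43. Atp5b, a core subunit of ATP synthase, was at 212 FPKM in wild type against 435 FPKM in heterozygous valves, whereas the muscle isoforms Cox7a1 (207 and 134 FPKM) and Cox8b (246 and 162 FPKM) were lower. The 4 measured proteins encoded by mitochondria had a median of -0.07. Splicing factors were higher in 25 of 26, with Sfrs7, a serine- and arginine-rich factor, at 136 FPKM in heterozygous valves, compared with 48.1 FPKM in wild type valves.

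Stress and lipid genes held a few larger differences. Hsph1 and Hspa8, chaperones of the cytosol, were at 8.52 and 159 FPKM in wild type valves and 24.5 and 318 FPKM in heterozygous ones. Edem1, which directs misfolded proteins out of the endoplasmic reticulum, stood at 20.2 FPKM in wild type valves and 75.3 FPKM in the heterozygotes. Sc5d and Cyp51, late enzymes of cholesterol synthesis, were at 5.49 and 4.85 FPKM in wild type valves and 19.1 and 14.8 FPKM in heterozygous ones. Secreted antioxidant enzymes were lower, Gpx3 at 123 FPKM in wild type against 41.9 FPKM in heterozygous valves and Sod3 at 66.9 FPKM in heterozygous valves, compared with 146 FPKM in wild type valves, while the cytosolic Sod1 was 485 and 599.7 FPKM. In fat metabolism Lpl, which releases fatty acids from circulating lipid, was at 78.1 FPKM in wild type valves and 171 FPKM in the heterozygotes, and its anchor on endothelium Gpihbp1 at 4.26 FPKM in wild type against 14.2 FPKM in heterozygous valves. Hmox1, the inducible haem-degrading enzyme, stood at 26.4 FPKM in heterozygous valves, compared with 10.3 FPKM in wild type valves. The list for melanocytes, which reside in mouse valves, had a median of 0.30, with the pigment enzyme gene Dct at 94.5 and 75 FPKM.

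Several genes outside these lists were among the 15 largest differences in a direction. Ly6g6c, a surface protein gene of the Ly6 family, was at 112 FPKM in wild type valves and 0.523 FPKM in the heterozygotes, and U2af1l4, a relative of a splicing factor gene, at 316 FPKM in wild type against 17.6 FPKM in heterozygous valves. Gchfr, which encodes a feedback regulator of the enzyme that makes tetrahydrobiopterin, stood at 1.03 FPKM in heterozygous valves, compared with 32.2 FPKM in wild type valves and was lower in the short-telomere pair as well (44.3 and 1.73 FPKM). Among the genes with the largest positive differences, Mgst2, a glutathione transferase of membranes, was at 1.27 FPKM in wild type valves and 28 FPKM in the heterozygotes, and Syt13, of the synaptotagmin family, at 0.663 FPKM in wild type against 18.3 FPKM in heterozygous valves. Clec2i, a lectin gene of the natural killer complex, stood at 0.0643 and 10.9 FPKM.

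Short RNAs and short genes were higher more often than long ones. Among genes with a mean of at least 10 FPKM, 23.9% of those with transcripts of up to 1031 bases were higher by at least 1 log2 unit, against 3.41% of those with transcripts of 7029 bases or more. The shares of lower genes were 8.39% and 5.97%. In the second shortest class, from 1034 to 1690 bases, 8.26% were higher and 4.7% lower. The shortest class takes in the T cell receptor segments described above that reached a mean of 10 FPKM. Their part in its share was not tested. Of 116 small nucleolar RNA genes, which guide the modification of ribosomal RNA, 56 were higher and 13 lower by at least 1 log2 unit. Their median was 0.83. Of 62 microRNA genes 17 were higher and 23 lower by as much. The table lists 705 genes at 0 in wild type and 250 in heterozygous valves, and 51 genes listed at 0 in wild type were at 10 FPKM or more in heterozygous valves, against 13 in reverse. Such values rest on unknown depth.

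Set beside the short-telomere pair, most of the large differences were not shared. With short telomeres 2254 genes (12.5%) were higher and 1943 (10.8%) lower in heterozygous valves by at least 1 log2 unit, and the 2 pairs share no samples. Of the 486 genes higher by at least 2 log2 units with long telomeres, 80 (16.5%) were higher and 116 (23.9%) lower with short telomeres by at least 1 log2 unit. Of the 230 lower genes, 60 (26.1%) were lower and 33 (14.3%) higher there by at least 1 log2 unit. Platelet receptors and erythroid genes were lower in both pairs, respiratory chain and sarcomere genes higher in both, and the CD3, signalling and thymocyte lists were opposite. Lck was at 12 FPKM in wild type valves and 1.43 FPKM in heterozygous ones with short telomeres, Bcl11b at 0.839 and 0.882 FPKM, and Ccr9 at 3.88 and 1.03 FPKM. Heterozygous valves with long telomeres were thus the highest of the 4 groups for these 3 genes. S100a8, a calcium-binding protein gene of neutrophils, differed between the wild type groups and stood at 892 FPKM in wild type valves with short telomeres and 4.99 FPKM in those with long telomeres. No test of the difference between the pairs is possible with 1 value per group.

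**Figure D4:**
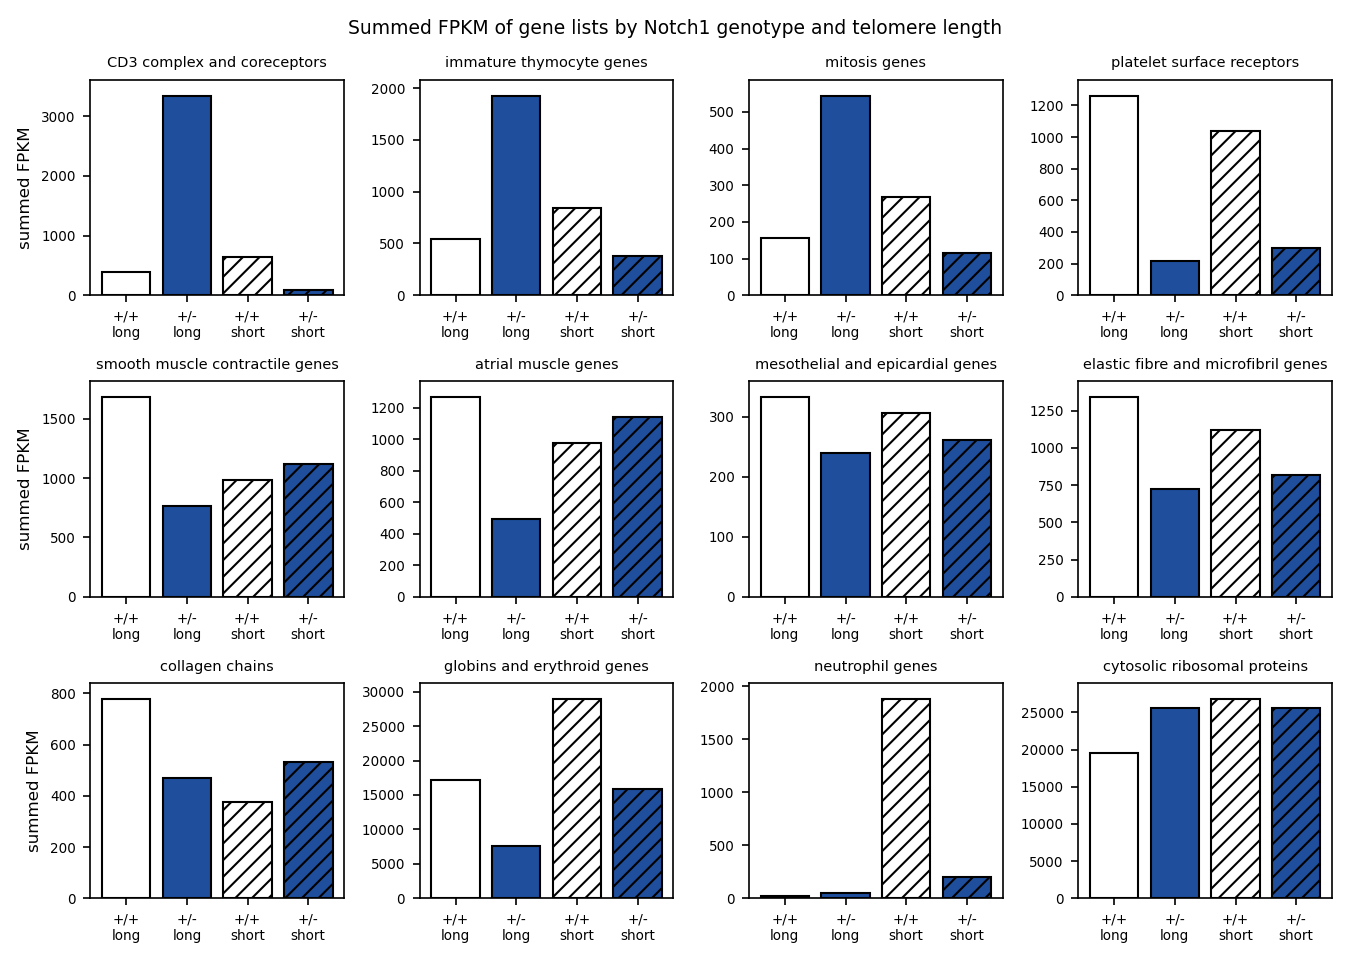
Bars give the summed FPKM of the measured members of 12 gene lists in 4 groups: Notch1 wild type (white, +/+) and heterozygous (blue, +/-) valves with long (plain) and short (hatched) telomeres. Each bar is 1 pooled value without an error. Heterozygous valves with long telomeres have the tallest bars for CD3 complex, thymocyte and mitosis genes and the shortest for platelet receptors and elastic fibre genes.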

How the data were processed

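RNA from aortic valve leaflets of 8 mice, 4 per Notch1 genotype, was made into amplified cDNA with a kit that does not keep strand and sequenced, per the labels' protocols, so reads of overlapping or antisense genes cannot be told apart. The submitters' processing notes name FastQC, TopHat, SAMtools, Picard and build mm9. Which tool computed expression, and on what annotation, is not given in the sources used here. Per the file headers, FPKM was deposited as 1 number for each gene in each group, so libraries were pooled or averaged and depth is unknown. The authors' call columns were not used.

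Groups came from the genotype labels. Differences were taken as log2(FPKM + 1), with a pseudocount of 1 FPKM and no filter, and were described by counts past 1 and 2 log2 units and by medians of 65 gene lists (1297 distinct genes, 59 of 1416 entries unmatched). The members and lists were chosen with earlier results of these data known. Named by rule were Notch1, Terc, the 15 genes with the largest difference in each direction at 10 FPKM or more in a group (clone, predicted and small RNA names aside), 4 members per list at 5 FPKM or more, and the 5 most abundant genes per group. Any other gene was picked with its values in view. A few genes the rule names are not reported here. Of 18073 genes 16966 (93.9%) matched GENCODE M21 by identifier, which gave symbols, lengths and gene types; 217 rows share their symbol with another row. RefSeq promoters of GRCm38.p6, another build than mm9, ran from 250 bases before to 50 after the start. The code was tested on simulated data. Scripts ran under Python 3.11.15 (numpy 2.4.6 and pandas 2.3.3; figures with matplotlib 3.10.9). Alternatives were a pseudocount of 0.1, filters at a mean of 1 and 10 FPKM, scaling to the median or to totals without mitochondrial genes, and leaving out blood and lymphoid lists.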

Additional observations from a re-analysis of the deposited data

Results flagged for a closer look

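The genotype difference of 3 T cell lists had opposite signs at the 2 telomere lengths. The median for the CD3 complex and coreceptor genes was 2.91 with long telomeres and -1.85 with short telomeres. For T cell receptor signalling genes the medians were 2.07 and -1.27, and for immature thymocyte genes 2.46 and -1.15. Each group has 1 pooled value, so the difference between the telomere lengths was not tested.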

How the results depend on the processing

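With 1 pooled value per group, leaving out single mice was not possible. No paired analysis was possible because each group has 1 pooled value and replicate numbers name no column. The counts of genes higher and lower by at least 1 log2 unit, and higher and lower by at least 2, were 3239, 2214, 1353 and 709 with a pseudocount of 0.1, which widens differences of low genes. With only genes at a mean of 10 FPKM or more they were 619, 423, 211 and 84, since fewer genes entered. The other 4 alternatives kept these counts within 1.5 times. Median scaling moved the median of all genes by -0.09, and no scaling moved it by over 0.1. Of the 65 lists, 49 had a median at least 0.25 from 0, and none of these reversed under an alternative that gave it a value, nor did any of the 187 named genes past 1 log2 unit. For the named genes this was fixed in advance. A pseudocount or a filter cannot change the sign of a gene's difference, and the scalings were too small to do so past 1 log2 unit. None of the alternatives measures the spread between mice. Leaving out blood and lymphoid lists gave values for 55 lists and 216 named genes, so the platelet and T cell lists have none there, and the filter at 10 FPKM gave values for 60 lists and 197 genes. Of 375 list medians under alternatives 18 moved by more than 0.25 and by more than 25% of their size. With the filter at 10 FPKM the median became -2.30 for atrial genes, -0.17 for megakaryocyte factors, -1.11 for platelet granule genes, -1.14 for erythroid genes and -0.66 for clock genes. With a pseudocount of 0.1 it became 1.68 for thymic epithelium, 1.43 for neutrophil genes, 0.92 for mature lymphocyte genes, -1.67 for mesothelial genes and -1.14 for erythroid genes. With the filter at 1 FPKM it became -0.33 for the epidermal growth factor family. Leaving out 197 blood and lymphoid genes left 1906 genes higher and 1305 lower by at least 1 log2 unit. Unknown depth limits genes with low values most.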

Other observations

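The mitochondrial, matrix and iron-storage genes below were among the more abundant in either group. The mitochondrial gene for a leucine transfer RNA, mt-Tl1, was at 9801 FPKM in heterozygous valves, compared with 16282 FPKM in wild type valves. Mgp, which encodes the matrix Gla protein that inhibits calcification of cartilage and arteries, stood at 2835 and 3275 FPKM. Ftl1 and Fth1, the chains of the iron store ferritin, were at 1938 and 1955 FPKM in wild type valves and 1572 and 1663 FPKM in heterozygous ones.

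Guidance molecules of the semaphorin family held differences in both directions. Plxna4, a semaphorin receptor, was at 27.7 FPKM in wild type valves and 11.8 FPKM in the heterozygotes, and Sema4d, a semaphorin of lymphocytes, at 10.4 FPKM in wild type against 25.5 FPKM in heterozygous valves. Sema7a, which is tethered to the membrane, stood at 11 FPKM in heterozygous valves, compared with 4.01 FPKM in wild type valves. The early response gene Fosb was at 14.2 FPKM in wild type valves and 42.8 FPKM in the heterozygotes and Egr3 at 19.5 FPKM in wild type against 5.69 FPKM in heterozygous valves, with a median of 0.17 over 24 such genes. In the cell cycle inhibitor and p53 target list Fas, a death receptor gene, stood at 19.2 FPKM in heterozygous valves, compared with 5.8 FPKM in wild type valves, and Cdkn2b, which encodes the inhibitor p15, at 14.9 FPKM in wild type valves and 6.87 FPKM in the heterozygotes.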
